A study of Mus musculus with 12 samples.

Results

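In fetal liver progenitors labelled Rev1 knockout, the added Pcna K164R mutation went with more Cdkn1a and other p53 target transcripts, more red cell transcripts, and fewer interferon-stimulated, lymphoid-priming and imprinted growth transcripts. The comparison set the 4 double mutant plates (homozygous Pcna K164R and homozygous Rev1 knockout) against the 3 plates that were wild type for Pcna and homozygous for the Rev1 knockout. These are 7 of the 12 plates of the series, chosen by their genotype label alone. They held 1597 wells that passed the depth minimum of 1000 unique molecular identifiers (UMIs), 814 double mutant and 783 Rev1 knockout. All 7 plates are labelled homozygous for the Rev1 knockout, so by label the allele that differs is Pcna K164R. The other 5 plates were 3 wild type (WT) and 2 homozygous Pcna K164R with intact Rev1. They entered the same fit, so they also bear on the estimates through its sort date term and shared spread. The calls rested on few plates and on the fit. Of 11799 genes tested 206 passed in edgeR, but 2 did without the plate labelled double mutant 4 and 7 without Rev1 knockout plate 2. With flow cell in place of sort date 9 passed, and on read counts 0. Without the plate labelled double mutant 4 the median log2 fold change of the red cell list fell from 1.83 to 0.47.

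The cells were LSK cells (lineage-negative, Sca-1-positive, Kit-positive), the sorted fraction that holds haematopoietic stem cells and multipotent progenitors, from the liver of C57BL/6J fetuses at embryonic day 18.5. Single cells were sorted into plates and read with SORT-seq, which gives each captured poly(A) RNA a well barcode and a UMI near its 3' end. No label ties a plate to an animal, so the p-values measure the spread between plates, which may be technical. A plate is called here by its genotype and a number given in the order of deposit.

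PCNA is the ring that clamps replicative polymerases to DNA. When a fork meets a damaged base, ubiquitin is attached to K164, a lysine of PCNA, and recruits translesion polymerases, which copy past the lesion. REV1 is one of these polymerases and also a scaffold that binds others, and K164R is a change of that lysine to arginine, which cannot carry the ubiquitin. Unrepaired replication stress is known to activate p53, whose targets include the cell-cycle inhibitor p21, and blood stem cells are known to be sensitive to it.

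The plates differed in depth and in sort date, called here session 1, 2 or 3. Double mutant plates 1 and 2 were sorted in session 1, where there is no Rev1 knockout plate. Double mutant plates 3 and 4 were read on a flow cell that held no other plate of the series. Session 2 held Rev1 knockout plate 1 and double mutant plate 3, and session 3 held Rev1 knockout plates 2 and 3 and double mutant plate 4. Wells under the minimum, 369 on Rev1 knockout and 722 on double mutant plates, were left out. The Rev1 knockout plates held 4436835 to 6170642 UMIs and double mutant plates 1, 2 and 4 held 2402867 to 11617420. Double mutant plate 3 stood apart with 212938 UMIs in 82 wells, and 1 UMI there equals 9.41 CPM (counts scaled to a fixed total of UMIs), so a 0 on that plate says little. Kit, Cd34 and Ptprc were detected on all 7 plates, and Ly6a, which encodes Sca-1, on all but double mutant plate 3. The T cell gene Cd3e was at 0 on the Rev1 knockout plates and at most 0.424 CPM on double mutant plates.

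Rev1 itself did not separate the plates by label. On the normalised scale used throughout (CPM after TMM scaling), it stood at 5.78, 1.31 and 3.87 CPM on Rev1 knockout plates 1 to 3 and at 1.36, 2.57, 9.41 and 13.99 CPM on double mutant plates 1 to 4, against 13.8 ± 4.14 (SD, n = 3) in WT. Double mutant plate 4 held 33 Rev1 UMIs and lay at the WT level, which goes against its label, and plate 3 held 1 UMI. Whether the 3' tags lie inside the deleted part of the gene was not tested. Rev1 knockout plates 1 to 3 and double mutant plates 1 and 2 lay below every plate with intact Rev1, of which Pcna K164R plate 2 was lowest at 7.68 CPM. Why the plate labelled double mutant 4 did not was not tested. That plate is therefore written as the plate labelled double mutant 4, and the count of each gene group described below is also given without it. Pcna, whose K164R change is a point mutation that a count cannot show, was at 820.4, 499.7 and 600.3 CPM and at 1069, 933, 377 and 1005 CPM, with overlapping groups and a log2 fold change of 0.19 ± 0.36 (SE, edgeR adjusted p = 0.836).

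Of 11799 autosomal and mitochondrial genes tested, 206 passed edgeR's quasi-likelihood test at an adjusted p under 0.05, which is 1.75% of those tested. In the double mutant 77 were higher (0.653%) and 129 lower (1.09%). All log2 fold changes are double mutant minus Rev1 knockout, from 1 model of all 12 plates whose terms were genotype and session. The median over all genes tested was -0.02. On 63 of the 77 higher genes every double mutant plate lay above every Rev1 knockout plate, a separation that 6.08% of all genes tested showed. On 119 of the 129 lower genes every double mutant plate lay below, which 11.4% of all genes showed. The called genes were chosen by this contrast on these plates, so their separation follows in large part from the choice. The count rested on the plate labelled double mutant 4: without it 2 genes passed, Ifi44 and Tpsb2, both lower. Ifi44 is on the interferon list and Tpsb2 on the mast cell list, and the other 28 lists then had 0 members called in edgeR. It was 7 without Rev1 knockout plate 2, 30 without double mutant plate 2 and 616 without double mutant plate 3. Without the session term and without the plate labelled double mutant 4, a fit chosen after seeing the data, 143 genes passed.

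**Figure D1:**
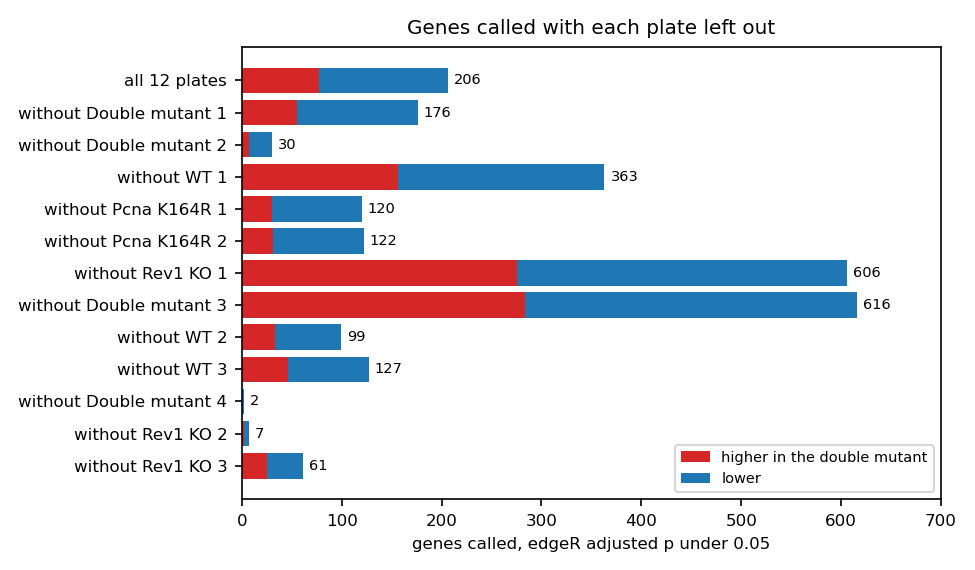
Number of genes past edgeR's adjusted p of 0.05 (x axis) for the double mutant minus Rev1 knockout contrast, with all 12 plates and with each plate left out (y axis). Red is higher and blue lower in the double mutant; the count falls from 206 to 2 without the plate labelled double mutant 4 and to 7 without Rev1 knockout plate 2.

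Cdkn1a, which encodes p21, had the smallest p among p53 targets and was higher on every double mutant plate than on any Rev1 knockout plate. Cdkn1a (chr17:29090976-29100727, GRCm38) stood at 14.1, 14.2 and 10.05 CPM on Rev1 knockout plates 1 to 3 and at 75.7, 99.4, 65.9 and 64.4 CPM on double mutant plates 1 to 4. The groups did not overlap, and the lowest double mutant plate lay well above the highest Rev1 knockout plate. The log2 fold change was 2.18 ± 0.30 (SE), with an edgeR adjusted p of 0.0134. It passed in 10 of the 12 fits that leave out 1 plate. Without the plate labelled double mutant 4 it was 1.81 (adjusted p = 0.158, edgeR) and without Rev1 knockout plate 2 it was 2.37 (adjusted p = 0.0627, edgeR). It also missed the threshold on wells thinned to 1000 UMIs (2.29, adjusted p = 0.121) and on read counts (2.0034, adjusted p = 0.144). In plates with intact Rev1, Cdkn1a was at 13.4 ± 7.698 CPM in WT (SD, n = 3) and 28.8 ± 0.885 CPM in Pcna K164R (SD, n = 2).

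Of the 47 tested genes on a list of p53 targets, 7 were higher and 1 was lower, beside 0.653% and 1.09% over all genes. The median log2 fold change of the list was 0.50. Ccng1, a cyclin G that feeds back on p53, went from 71.7, 63.7 and 68.2 CPM to 187, 184, 104 and 176 CPM (1.17 ± 0.20, edgeR adjusted p = 0.0203). Here and below the first values are Rev1 knockout plates 1 to 3 and the second double mutant plates 1 to 4. Plates 1, 2 and 4 of the double mutant sat close together and plate 3 lower, yet above all Rev1 knockout plates. Apaf1, the adaptor that activates caspase 9, went from 25.8, 25.7 and 31.7 to 44.95, 41.3, 65.9 and 55.95 CPM (1.07 ± 0.21). Gtse1, which shuttles p53 out of the nucleus in G2, went from 9.21, 25.1 and 22.2 to 49.2, 50.7, 47.1 and 53.8 CPM (1.36 ± 0.27). Neither gene's groups overlapped. Serpine2, a secreted protease inhibitor, went from 2.19, 4.58 and 1.74 to 27.8, 19.7, 18.8 and 25.01 CPM (3.60 ± 0.63), again with no overlap. Pvt1, the non-coding RNA next to Myc, went from 3.904, 3.93 and 9.86 to 47.95, 46.9, 9.41 and 38.6 CPM (2.17 ± 0.39), where double mutant plate 3 fell inside the Rev1 knockout range. The lower member was Tap1, a peptide transporter that is also on the interferon and MHC class I lists. With the plate labelled double mutant 4 left out, 0 p53 targets passed in edgeR and the median was 0.43. Without Rev1 knockout plate 2 it was 0 and without double mutant plate 2 it was 1, while without double mutant plate 3 it was 11 higher. DESeq2 on all plates called 11 higher and 1 lower.

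Of 15 tested BCL2 family genes, 1 was higher and 1 lower, beside 0.653% and 1.09% over all genes. Pmaip1, which encodes the p53-induced killer NOXA, was at 0.469, 1.09 and 1.16 CPM and at 8.63, 6.005, 18.8 and 6.78 CPM (3.30 ± 0.68, edgeR adjusted p = 0.0378). Bmf, another BH3-only killer, was at 3.44, 3.27 and 3.67 CPM and 0.363, 0.214, 0 and 0 CPM (-4.38 ± 0.97, edgeR adjusted p = 0.04401). The BH3-only pair moved in opposite directions, and both rest on few molecules (14 and 56 UMIs over the Rev1 knockout plates). Without the plate labelled double mutant 4 neither passed in edgeR, and Pmaip1 was at 3.89 (adjusted p = 0.167).

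The share of wells with Cdkn1a was compared after every well was thinned to 1000 UMIs. At least 1 Cdkn1a UMI was found in 0.612%, 0.939% and 1.23% of wells on Rev1 knockout plates 1 to 3 and in 7.84%, 8.21%, 3.66% and 4.67% on double mutant plates 1 to 4. All double mutant plates lay above all Rev1 knockout plates at this depth. Thinned to 2000 UMIs, the shares were 1.56% to 4.44% on Rev1 knockout plates and, on double mutant plates 1 to 4, 12.2%, 17.6%, 3.23% and 15.7%, so that double mutant plate 3, with 31 wells of that depth, fell inside the Rev1 knockout range (difference 9.04 percentage points, exact permutation p = 0.114). The exact 95% Clopper-Pearson intervals, which cover counting error only, ran from 5.27% to 11.1% on double mutant plate 1 and from 0.255% to 3.57% on Rev1 knockout plate 3. The mean shares were 6.10% ± 2.27 (SD, n = 4) and 0.928% ± 0.312 (SD, n = 3), and an exact permutation test of plates gave p = 0.0571 (two-sided), where the smallest possible is 0.0286. The same shares before thinning were 15.9%, 20.2% and 12.8% against 53.5%, 58.2%, 8.54% and 41.1%, with the shallow double mutant plate 3 lowest. In wells with fewer than 3 UMIs of the erythroid list described below, the thinned shares were 0.837%, 1.07% and 0.535% against 8.81%, 8.33%, 4.23% and 10.3%. In wells with 3 or more they were 0%, 0% and 3.57% against 6.15%, 8.09%, 0% and 1.47%, and the groups overlapped. The plate labelled double mutant 4 had 39 wells with fewer than 3 such UMIs and 68 with 3 or more. Double mutant plate 3 had 71 and 11.

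The largest group among the lower genes was that of the type I interferon-stimulated genes, which cells switch on through a receptor and a transcription factor complex that includes IRF9 to resist viruses. Of 78 tested list members 37 were lower and the median log2 fold change was -1.74, beside 1.09% lower and a median of -0.02 over all genes. On 51 of the 78 every double mutant plate lay below every Rev1 knockout plate, which 11.4% of all genes showed. The summed level of the list was 5906, 7250 and 7063 CPM on Rev1 knockout plates 1 to 3. On double mutant plates 1 to 4 it was 4084, 3111, 6730 and 2383 CPM, so the shallow plate 3 fell inside the Rev1 knockout range. The complex that includes IRF9 binds GAAA repeats. The promoters of 4 lower genes with such letters are shown so that the sequence can be seen beside the values. Each line is a window of 60 bases within the 250 before the RefSeq start in GRCm38.p6, 5′ to 3′ on the gene's strand, with GAAANNGAAA or its reverse complement TTTCNNTTTC in capitals. Ifit1 (chr19:34640779-34640838, plus strand) and Ddx60 (chr8:61928027-61928086, plus strand) hold 2 matches in the window, and Rsad2 (chr12:26456538-26456597, minus strand) and Irgm2 (chr11:58214888-58214947, plus strand) hold 1.
Ifit1: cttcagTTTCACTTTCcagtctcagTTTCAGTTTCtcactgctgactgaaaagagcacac
Ddx60: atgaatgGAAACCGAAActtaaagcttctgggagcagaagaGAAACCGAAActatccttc
Rsad2: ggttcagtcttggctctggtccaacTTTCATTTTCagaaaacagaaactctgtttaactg
Irgm2: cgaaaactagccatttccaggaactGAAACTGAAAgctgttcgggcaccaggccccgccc

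A promoter was matched for 24 of the 37 lower list members, and 10 of them (41.7%) held the motif on either strand in the 250 bases before the start. Among the 35 matched list members that did not pass, 15 did (42.9%). Of 9407 matched genes tested 3.16% held it, and of 56 matched genes higher in the double mutant 0 did. Of 74 matched lower genes that are not on the list, 4 held it (5.41%). A match is a description of letters and not of binding.

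Ifi44 (chr3:151730922-151749960), an interferon-induced cytoplasmic protein, had the smallest p of all genes. It was at 38.3, 68.96 and 66.7 CPM on the Rev1 knockout plates and at 2.997, 2.36, 0 and 1.27 CPM on the double mutant plates. The groups were far apart, with WT between them at 32.5 ± 9.96 CPM (SD, n = 3) and Pcna K164R at 16.7 ± 8.14 (SD, n = 2). The log2 fold change was -4.46 ± 0.46 (edgeR adjusted p = 0.00364), and Ifi44 passed in all 12 fits that leave out 1 plate (adjusted p = 0.048 without the plate labelled double mutant 4).

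Among signal transducers, Irf9, a DNA-binding factor of the interferon response, went from 101, 118 and 114 to 55.9, 37.9, 56.5 and 30.1 CPM (-1.49 ± 0.29, edgeR adjusted p = 0.0292). Usp18, the protease that removes ISG15 and restrains the receptor, went from 14.7, 37.8 and 32.1 to 5.36, 3.11, 0 and 1.27 CPM (-3.40 ± 0.55). All double mutant plates were below all Rev1 knockout plates for both genes.

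Among the lower list members were 2 sensors of foreign RNA. Ddx58, which encodes RIG-I, went from 65.3, 72.4 and 63.004 to 26.3, 17.8, 0 and 6.78 CPM (-2.43 ± 0.44, edgeR adjusted p = 0.0235). Dhx58, which encodes LGP2, went from 32.2, 72.2 and 61.5 to 10.1, 3.86, 9.41 and 5.51 CPM (-2.91 ± 0.46). The groups of both genes did not overlap. Oas2, an oligoadenylate synthetase that activates RNase L, went from 29.05, 71.4 and 64.4 to 8.72, 3.32, 0 and 2.97 CPM (-3.53 ± 0.49), and its relative Oasl2 from 122, 200.3 and 182 to 25.97, 12.2, 9.41 and 5.93 CPM (-3.64 ± 0.54).

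Of the effectors that block viral growth, Ifit1 went from 59.3, 87.5 and 77.9 to 7.901, 2.79, 18.8 and 4.66 CPM (-3.30 ± 0.51, edgeR adjusted p = 0.0147). Rsad2, which encodes viperin, went from 63.2, 86.4 and 93.5 to 9.08, 2.25, 18.8 and 2.54 CPM (-3.92 ± 0.61). Double mutant plate 3, with 2 UMIs of each gene, was the highest of its group for both genes. Ddx60 did not separate on that plate: it was at 24.99, 23.8 and 27.3 CPM in the Rev1 knockout and at 2.09, 2.68, 28.2 and 1.27 CPM in the double mutant. The interferon-inducible GTPase Irgm2 went from 28.1, 29.5 and 34.4 to 7.81, 5.58, 9.41 and 7.21 CPM (-1.93 ± 0.30), and the membrane protein Ifitm3 from 421, 658 and 607 to 379.9, 291, 28.2 and 206 CPM (-1.74 ± 0.39). Xaf1, an interferon-induced pro-apoptotic protein, went from 45.4, 52.6 and 66.5 to 10.8, 10.1, 18.8 and 6.36 CPM (-2.71 ± 0.32), and the mono-ADP-ribosyltransferase Parp14 from 64.7, 80.96 and 78.5 to 23.1, 20.1, 18.8 and 18.2 CPM (-1.77 ± 0.25).

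Without the plate labelled double mutant 4, 1 list member passed (Ifi44) and the median was -1.25. Without Rev1 knockout plate 2, 2 passed, and without double mutant plate 2, 12. Without double mutant plate 3, 54 passed, and without wells of 3 or more erythroid-list UMIs, 21 passed with a median of -1.45. DESeq2 called 51 lower. In single wells an Ifi44 UMI was found in 6.42%, 7.98% and 4.53% of thinned wells on Rev1 knockout plates and in 0.56%, 0.373%, 0% and 0% on double mutant plates. The 2 zeros rest on 82 and 107 wells, and their exact 95% upper bounds were 4.399% and 3.39%. Before thinning the shares were 26.3%, 45.5% and 41.98% against 6.72%, 4.1045%, 0% and 2.80%.

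**Figure D2:**
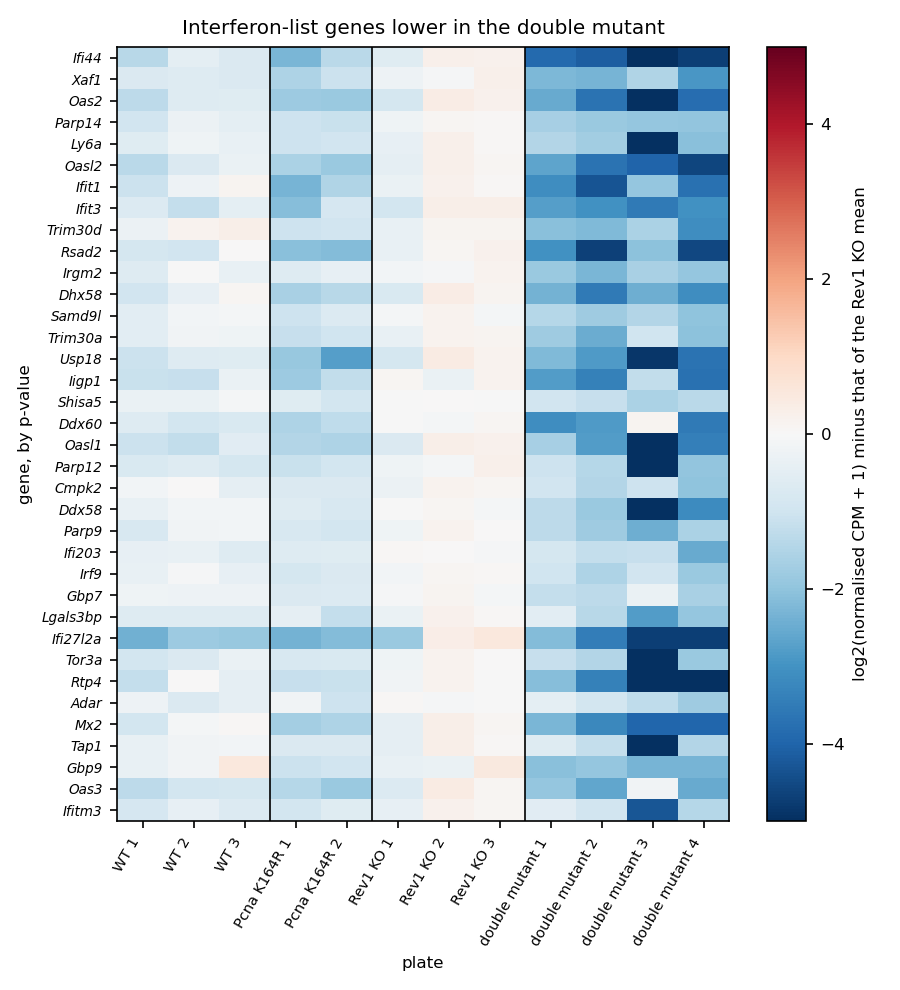
Each cell shows log2(normalised CPM + 1) of a gene (y axis, ordered by p-value) on a plate (x axis) minus that of the mean of the 3 Rev1 knockout plates. The 36 genes are interferon-list members called lower, so blue in the double mutant columns follows from the choice. The WT and Pcna K164R plates were not in the contrast but bore on the choice through the session terms and shared spread of the fit.

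Neighbouring immune genes moved the same way in part. Of 9 tested MHC class II genes 2 were lower, and of 17 MHC class I genes 1 was, beside 1.09% over all genes. H2-Ob, a subunit of the HLA-DO homologue that tempers peptide loading, went from 24.8, 27.9 and 26.1 to 11.6, 7.399, 0 and 3.81 CPM (-2.06 ± 0.44, edgeR adjusted p = 0.0394). Ctss, the protease cathepsin S, went from 20.9, 56.7 and 51.99 to 26.3, 19.3, 28.2 and 18.2 CPM (-1.72 ± 0.35) with overlapping groups. Of 21 chemokine and NF-κB genes 3 were lower: Wfdc17, Ccl4 and Ccl3. Wfdc17, a small secreted inhibitor, went from 40.3, 37.5 and 28.99 to 4.904, 3.22, 0 and 1.696 CPM (-3.61 ± 0.42). The chemokine Ccl4 went from 33.1, 25.3 and 22.03 to 2.63, 2.68, 0 and 0.424 CPM (-3.94 ± 0.55, edgeR adjusted p = 0.0134). Both pairs of groups were apart, and WT lay with the Rev1 knockout, at 40.1 ± 4.003 and 34.5 ± 3.92 CPM (SD, n = 3). With the plate labelled double mutant 4 left out, 0 genes of the chemokine and both MHC lists passed in edgeR, with medians of -0.496 (chemokine), -0.213 (class I) and -0.152 (class II), and Wfdc17 was at -3.29 (adjusted p = 0.0679).

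Part of the genes that mark lymphoid priming of multipotent progenitors were lower. Of 32 tested lymphoid-priming genes 7 were lower, beside 1.09% over all genes, and the median log2 fold change was -1.01. Flt3, the cytokine receptor of lymphoid-primed progenitors (chr5:147330741-147400489), went from 203, 209.9 and 195 to 80.6, 53.6, 28.2 and 44.1 CPM (-2.01 ± 0.30, edgeR adjusted p = 0.0139). WT was at 238 ± 23.5 CPM (SD, n = 3), and no double mutant plate reached the lowest Rev1 knockout plate. Satb1, a chromatin organiser needed for lymphoid commitment, went from 169, 216 and 194 to 65.2, 47.4, 47.1 and 17.4 CPM (-2.58 ± 0.42). Sox4, a factor of early B cell development, went from 195, 228 and 149 to 37.9, 77.95, 56.5 and 29.7 CPM (-2.61 ± 0.41). Notch1, the receptor that directs T cell fate, went from 105, 111 and 97.98 to 53.6, 36.1, 56.5 and 21.6 CPM (-1.57 ± 0.34). Each of these separated without overlap, with the plate labelled double mutant 4 the lowest for Satb1, Sox4 and Notch1. Mef2c, Gimap6 and Lsp1 also passed, at -1.06, -1.30 and -1.28. Cd4 (-3.08) and Pou2f2 (-2.74), which encodes the lymphoid factor OCT2, were among the 12 lower genes of smallest p. Without the plate labelled double mutant 4, 0 lymphoid-priming genes passed in edgeR and the median was -0.42. Without Rev1 knockout plate 2 the count was 0 and without double mutant plate 2 it was 2, beside 10 in DESeq2 on all plates.

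In thinned wells a Flt3 UMI was found in 24.2%, 21.6% and 13.6% of wells on Rev1 knockout plates and in 7.28%, 6.72%, 0% and 1.87% on double mutant plates. The 4 double mutant shares were below the 3 Rev1 knockout shares. For double mutant plate 3 the exact 95% upper bound was 4.399%. Before thinning the shares were 80.1%, 76.1% and 72.4% against 52.1%, 51.9%, 3.66% and 30.8%. A sum over wells alone cannot tell fewer cells of a type from less RNA per cell.

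Stem cell and fetal growth genes were lower in smaller numbers. Of 52 tested stem cell genes 3 were lower (Ly6a, Meg3 and Cd34), beside 1.09% over all genes, and the median was -0.52. Ly6a, the gene of the sorting antigen and itself interferon-induced, went from 66.5, 105 and 92.8 to 30.97, 25.6, 0 and 19.9 CPM (-2.07 ± 0.31, edgeR adjusted p = 0.0139). Cd34, a sialomucin of early progenitors, went from 419, 441 and 365 to 284, 286, 132 and 125 CPM (-1.45 ± 0.25). With the plate labelled double mutant 4 left out, 0 stem cell genes passed in edgeR and the median was -0.48. Ly6a then stood at -1.72 (adjusted p = 0.158), Meg3 at -3.25 (0.0679) and Cd34 at -1.16 (0.204), and Cd34 also missed with no session term (-0.93, adjusted p = 0.0916). Without Rev1 knockout plate 2 the count was 0 and without double mutant plate 3 it was 7. Hlf, a stem cell transcription factor named for comparison after its values were seen, was at 414, 255 and 225 and 152, 201, 226 and 121 CPM, with groups that overlapped through the shallow double mutant plate 3 alone (-0.85 ± 0.21, edgeR adjusted p = 0.0639). In thinned wells an Hlf UMI was found in 35.5%, 22.5% and 20.2% of wells against 15.1%, 18.7%, 12.2% and 15.9%, where the groups did not overlap. Before thinning these shares were 88.7%, 82.2% and 74.9% against 70.6%, 75.4%, 19.5% and 53.3%.

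Of 21 fetal and imprinted growth genes 5 were lower and 1 higher, beside 1.09% and 0.653% over all genes. At the imprinted Dlk1-Meg3 locus of chromosome 12 both genes were lower. The paternally expressed Dlk1 (chr12:109452823-109463336), a transmembrane ligand, went from 119, 69.4 and 68.2 to 17.9, 18.2, 0 and 10.2 CPM (-2.79 ± 0.31, edgeR adjusted p = 0.00431). The maternally expressed RNA Meg3 (chr12:109541001-109571726) went from 66.998, 31.4 and 34.01 to 3.18, 1.72, 28.2 and 6.78 CPM (-2.75 ± 0.41, edgeR adjusted p = 0.0139). Double mutant plate 3, with 3 Meg3 UMIs, lay just under the lowest Rev1 knockout plate, while the other double mutant plates were far below. Igf2, the fetal growth factor, went from 37.5, 6.98 and 13.7 to 1.36, 1.61, 0 and 2.12 CPM (-2.98 ± 0.53), with Rev1 knockout plate 1 the highest. Its neighbour H19, a maternally expressed RNA, went from 151, 76.8 and 78.7 to 93.2, 39.4, 65.9 and 15.3 CPM (-1.88 ± 0.42) with overlapping groups. Igf2bp2, which binds Igf2 mRNA, was at -1.06. Grb10, an imprinted brake on growth factor receptors, went the other way, from 99.8, 67.4 and 78.1 to 195, 184, 113 and 237 CPM (1.31 ± 0.26). Without the plate labelled double mutant 4, 0 genes of this list passed in edgeR and the median was -0.736, with Dlk1 at -2.76 and Meg3 at -3.25 (adjusted p = 0.0679 for both). Without Rev1 knockout plate 2 Dlk1 alone passed, and without double mutant plate 2 the count was 2 lower.

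Red cell genes had the highest median of the 30 lists. Of 48 tested erythroid genes 8 were higher, with a median log2 fold change of 1.83, and of 34 haem and iron genes 3 were higher, with a median of 0.71. Over all genes 0.653% were higher. The summed erythroid list was at 1599, 1449 and 2565 CPM on Rev1 knockout plates and at 3866, 4876, 1996 and 6345 CPM on double mutant plates. Double mutant plate 3 fell inside the Rev1 knockout range. Epb4.2, the older symbol of the red cell membrane protein 4.2, had the smallest p among the higher genes. It went from 1.87, 1.75 and 3.67 to 21.2, 17.9, 28.2 and 35.2 CPM (3.72 ± 0.39, edgeR adjusted p = 0.00364), with WT at 5.22 ± 1.68 CPM (SD, n = 3). All double mutant plates lay above all Rev1 knockout plates, and plates 3 and 4 were the highest.

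Further red cell genes passed, some of them of the membrane and skeleton. Slc4a1, the band 3 anion exchanger, went from 0.156, 0 and 3.09 to 8.8999, 18.2, 18.8 and 29.2 CPM (4.86 ± 0.93, edgeR adjusted p = 0.0292). Rev1 knockout plate 3 was the highest of its group and the plate labelled double mutant 4 the highest of all. Epb4.9, dematin, was at 0.312, 1.96 and 1.55 and 8.81, 13.2, 0 and 34.8 CPM (3.64 ± 0.71), with 0 UMIs on double mutant plate 3. Minpp1, Trim10 and Cldn13 also passed, at 1.67, 4.96 and 2.67. Darc, the Duffy chemokine receptor, had 1 UMI over the Rev1 knockout plates and 145 over the double mutant plates, a ratio of pooled counts per normalised depth of 103 with a 95% counting interval of 18.2 to 4086.

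For haem and iron, Tfrc, the transferrin receptor, went from 71.8, 81.6 and 135 to 289.2, 323, 198 and 409 CPM (1.52 ± 0.30, edgeR adjusted p = 0.034003). The groups did not overlap. Fech, which inserts the iron, went from 23.6, 37.3 and 83.1 to 221, 211, 47.1 and 269 CPM (1.68 ± 0.36), where double mutant plate 3 lay inside the Rev1 knockout range. With the plate labelled double mutant 4 left out, 0 erythroid and 0 haem genes passed in edgeR, and the medians were 0.47 and 0.16. Without Rev1 knockout plate 2 the counts were 1 and 0, and without double mutant plate 3 they were 14 and 9. Without wells of 3 or more erythroid-list UMIs, 1 erythroid and 0 haem genes passed, and the medians were 0.86 and 0.15. Before adjustment, 36 erythroid and 17 haem genes were higher at p under 0.05, and DESeq2 called 17 and 6.

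The share of thinned wells with at least 3 UMIs of the erythroid list, a range of a score and not a cell type, was 26.9%, 12.2% and 23.05% on Rev1 knockout plates and 36.4%, 50.7%, 13.4% and 63.6% on double mutant plates. Double mutant plate 3 fell inside the Rev1 knockout range. The means were 41.0% ± 21.5 (SD, n = 4) and 20.7% ± 7.62 (SD, n = 3), and an exact permutation test of plates gave p = 0.2 (two-sided). WT plates stood at 26.3% to 38.3%. On the 7 plates the wells with exactly 2 or 3 such UMIs, next to the limit, numbered 6 to 75 and 5 to 41 per plate. Within session 3 the shares were 12.2% and 23.05% against 63.6%, and within session 2 they were 26.9% against 13.4%. Thinned to 2000 UMIs the difference of means was 8.82 percentage points (exact permutation p = 0.486). Before thinning it was -12.7 percentage points, with 91.8% to 98.1% of wells past the limit on all plates but double mutant plate 3, at 31.7%.

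**Figure D3:**
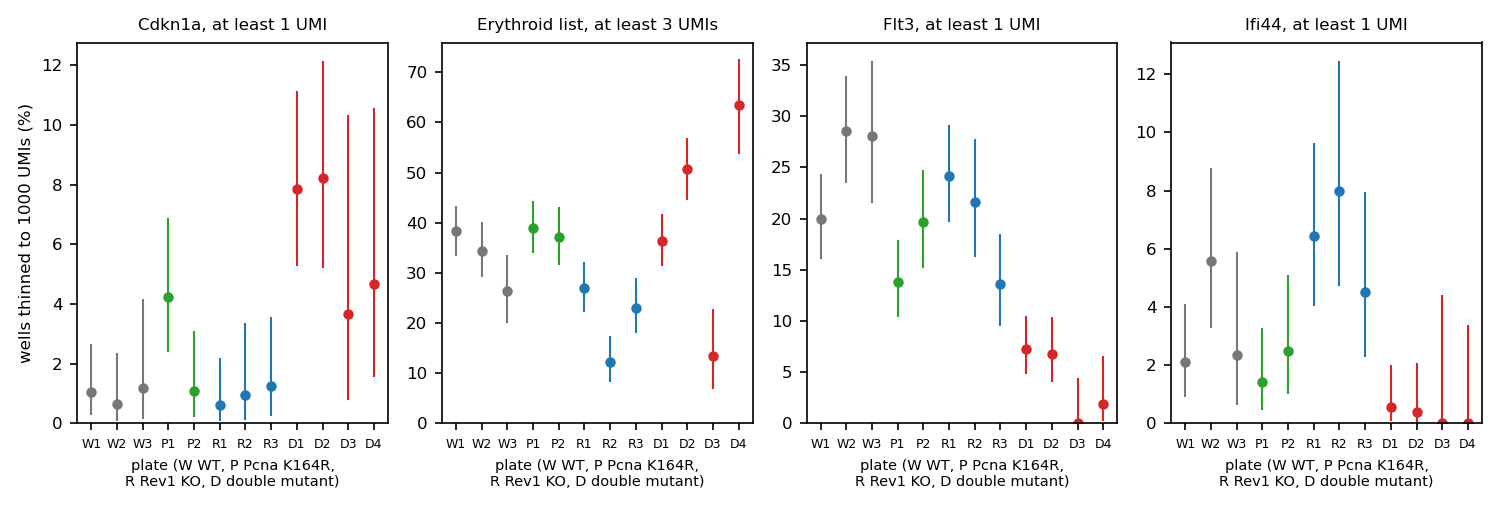
Percent of kept wells, each thinned to 1000 UMIs (y axis, from 0), with the named UMIs on each of the 12 plates (x axis); bars are exact 95% Clopper-Pearson intervals for counting error. Cdkn1a shares on double mutant plates (3.66% to 8.21%) lay above and Flt3 shares (0% to 7.28%) below those of Rev1 knockout plates, while erythroid-list shares overlapped.

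Few cell-cycle genes passed in edgeR. Of 51 origin and S phase genes 2 were higher (median 0.19), of 72 G2 and mitosis genes 1 (median 0.28) and of 19 G1 genes 2 (median 0.14), beside 0.653% higher over all genes. These calls are 4 genes, since Ccne1 is on the S phase and G1 lists, and the others are Rrm2, Gtse1 and Cdkn1a, of which the last 2 are p53 targets described above. At an unadjusted edgeR p under 0.05, 11 S phase and 17 G2 and mitosis genes were higher and 0 lower. Of the G1 genes 5 were higher and 2 lower. DESeq2 called 9, 11 and 2 higher on the S phase, G2 and G1 lists. Summed G2 and mitosis levels were 4941 to 8947 CPM on Rev1 knockout and 10288 to 11874.5 CPM on double mutant plates. The S phase and G1 sums overlapped. Without the plate labelled double mutant 4, 0 genes of the 3 lists passed in edgeR. The S phase and G1 medians then turned to -0.093 and -0.24, and the G2 and mitosis median was 0.45. Rrm2, the small subunit of ribonucleotide reductase, went from 126, 135 and 173 to 328, 291, 282 and 648 CPM (1.72 ± 0.29, edgeR adjusted p = 0.0188). The plate labelled double mutant 4 was far above the other double mutant plates, which were themselves above the Rev1 knockout plates. Ccne1, cyclin E1 of the entry into S phase, went from 23.6, 23.3 and 32.7 to 72.5, 79.5, 18.8 and 111 CPM (1.50 ± 0.31), with double mutant plate 3 the lowest of all 7. Rgcc, which is on none of these 3 lists, a regulator of the cell cycle that p53 can induce, went from 11.9, 16.6 and 28.6 to 70.7, 89.7, 56.5 and 183 CPM (2.67 ± 0.35, edgeR adjusted p = 0.0106).

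The genes of damage tolerance and repair themselves did not pass. Of 38 translesion and PCNA modification genes 0 passed in edgeR, and 5 were higher and 1 lower at an unadjusted p under 0.05. DESeq2 called 2 higher and 1 lower. The median was -0.000476, and 19 were above and 19 below 0. The smallest p was that of Pold4, the small subunit of DNA polymerase delta, at 22.6, 27.3 and 24.7 and 20.3, 16.7, 0 and 8.901 CPM (-1.49 ± 0.34, edgeR adjusted p = 0.05097). Of 56 Fanconi, checkpoint and homologous recombination genes 0 passed in edgeR, 5 were higher and 3 lower unadjusted, and DESeq2 called 0.

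Several higher genes fall outside these groups. Ccrn4l, the older symbol of the circadian deadenylase-like protein nocturnin, went from 18.3, 20.7 and 23.8 to 71.9, 70.1, 37.7 and 66.1 CPM (1.44 ± 0.21, edgeR adjusted p = 0.0136). Crip2, a LIM-domain protein, went from 1.87, 3.49 and 6.57 to 40.1, 43.2, 37.7 and 71.2 CPM (3.42 ± 0.53). S100a6, a calcium-binding protein, went from 12.7, 15.3 and 7.73 to 67.7, 47.2, 37.7 and 55.1 CPM (2.16 ± 0.41). All 3 separated without overlap. Daam1, a formin of the actin skeleton, and Ell2, an elongation factor of RNA polymerase II, were at 2.40 and 1.55. Bcl2l15 had 1 UMI over the Rev1 knockout plates and 93 over the double mutant plates, a ratio of 65.9 with a counting interval of 11.5 to 2631. Of 40 chaperone genes Hspd1 passed (1.00 ± 0.22), and of 48 Myc and ribosome biogenesis genes Pvt1 and Ddx39 (0.87) did. The share higher over all genes was 0.653%. The mitochondrially encoded mtAtp8 was at 157, 113 and 159 and 170.4, 194, 1534 and 1326 CPM (2.83 ± 0.64). It was the 1 called of 15 such genes and, among the 7 plates, high on double mutant plates 3 and 4 alone. Those plates share a flow cell with no Rev1 knockout plate, and with flow cell in place of session mtAtp8 was at 0.67 (edgeR adjusted p = 0.774). With no session term and both plates left out it was at 0.35 (adjusted p = 0.698). On plates with intact Rev1, mtAtp8 was at 258, 635 and 102 CPM in WT and 174 and 340 CPM in Pcna K164R. The cause of this spread was not tested. Of 21 immediate-early genes 1 was lower, the phosphatase gene Dusp2 (-1.48). Of 72 oxidative phosphorylation genes 0 passed in edgeR, with 3 higher and 1 lower unadjusted and 0 in DESeq2. Of 22 glycolysis genes 0 passed in edgeR, with 3 higher and 2 lower unadjusted and 1 lower in DESeq2.

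**Figure D4:**
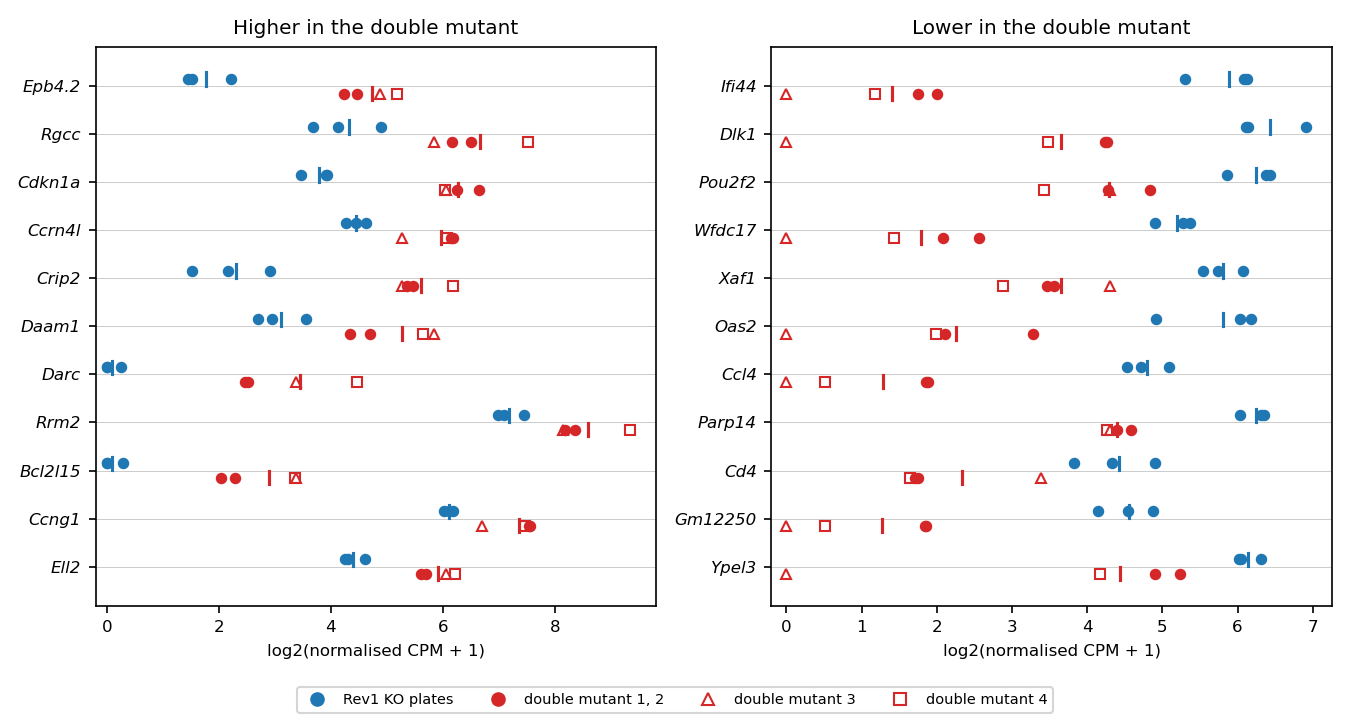
log2(normalised CPM + 1) on each of the 7 plates (x axis) for 11 of the 12 genes of smallest p in each direction (y axis); short vertical lines are group means on the CPM scale. Triangles are double mutant plate 3 and squares the plate labelled double mutant 4; the 2 groups do not overlap for any of the 22 genes, which were chosen by this contrast.

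Of markers of other cells that a fetal liver sort can hold, the summed hepatocyte list differed between the groups without overlap. That difference came in large part from 2 genes called by this same contrast. The part of such cells in the results was not tested. Of 7 tested hepatocyte genes 2 were lower, beside 1.09% over all genes. The summed level of the list was 106 to 127 CPM on Rev1 knockout plates and 42.0 to 65.8 CPM on double mutant plates. Those 2 were Hnf4a (-1.96) and Trf (-1.57). On Rev1 knockout plates, where they made up most of the sum, Hnf4a was at 48.3, 46.9 and 45.0 CPM and Trf at 46.1, 53.5 and 45.4 CPM. Alb was at 1.25, 1.31 and 7.15 and 2.91, 0.751, 28.2 and 2.54 CPM. Afp was at 4.22, 4.36 and 1.74 and 5.90, 5.04, 0 and 0.848 CPM. The groups overlapped for Alb and for Afp. Of 23 macrophage genes 1 was lower (Trf again), with list sums of 431 to 1036 and 646 to 1139 CPM. Of 15 endothelial and stromal genes 2 were lower (Egfl7, at -1.55, and Pdgfrb, at -2.75), with sums of 674 to 834 and 437 to 676 CPM. The sums of both lists overlapped between the groups. Cdh5, an endothelial cadherin, was at most 6.36 CPM on the 7 plates. Of 29 megakaryocyte genes 1 was higher and 1 lower, of 47 granulocyte and monocyte genes 1 was higher, and of 22 dendritic genes 1 was lower (Flt3 again). Of 22 mast cell genes 0 passed in edgeR, with 1 higher and 6 lower unadjusted, and DESeq2 called 1 higher and 3 lower.

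**Figure D5:**
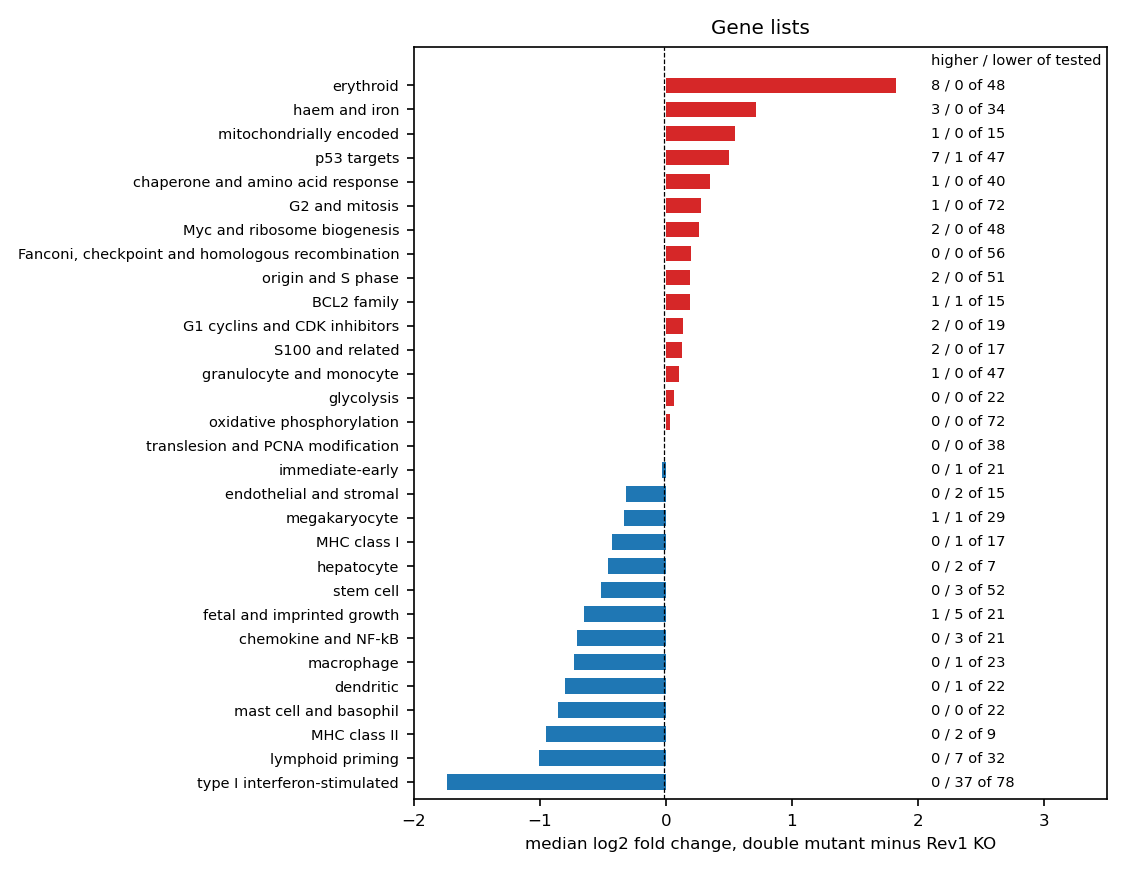
Median log2 fold change, double mutant minus Rev1 knockout (x axis), of each gene list (y axis), with the number of members called higher and lower of those tested; the dashed line is the median of all 11799 genes. The erythroid list (1.83) and the interferon list (-1.74) have the medians farthest from it.

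Whether K164R differed in its association with or without Rev1 was tested as an interaction, the double mutant minus Rev1 knockout difference minus the Pcna K164R minus WT difference. In edgeR 0 of 11799 genes passed at an adjusted p under 0.05, with 633 (5.36%) at an unadjusted p under 0.05. Ifi44 came closest, with an interaction of -3.78 ± 0.50 (adjusted p = 0.0806). For Cdkn1a the log2 fold change was 0.64 between Pcna K164R and WT and 2.18 between double mutant and Rev1 knockout, and the interaction was 1.54 ± 0.38 (edgeR adjusted p = 0.371). The corresponding pairs were -0.64 and -2.01 for Flt3, -0.35 and -2.79 for Dlk1, and 0.60 and 1.17 for Ccng1. The interferon list had medians of -0.52 and -1.74, the erythroid list 0.49 and 1.83, and the p53 list 0.04 and 0.50. The 2 differences compare different plates, but both come from the same fit, where all plates bear on the session terms and the spread. They are therefore not independent, and only 2 Pcna K164R plates stand behind the Pcna K164R minus WT difference.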

How the data were processed

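Deposited tables of 12 SORT-seq plates (384 wells each) were used. Per the labels' protocols, libraries were sequenced on a NextSeq 500. BWA 0.7.15 and build GRCm38 (mm10) are named in the submitters' processing notes, and the counting tool is not given in the sources used here. The authors deposited whole-number counts of UMIs and of reads, and transcript counts, which are expected counts corrected for repeated random barcodes (4096 possible). UMI counts were summed per gene over wells with at least 1000 UMIs outside ERCC spike-ins, which kept 3088 of 4608 wells. Genes on X and Y (724 of 19463) were left out.

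The sums were tested with edgeR 4.0.16 (TMM, default low-count filter, quasi-likelihood F-test, genotype and sort session, 12 plates, Benjamini-Hochberg at 0.05). DESeq2 1.42.0 and limma 3.58.1 on the same UMI sums were alternatives. In another alternative the expected counts, rounded to whole numbers, were tested with edgeR. On simulated counts for this comparison (11406 genes), 19% of genes changed by 1 log2 unit and 75.8% of those changed by 2 were recovered, with 3 false calls. Shares of wells were tested by exact permutation of plates (scipy 1.17.1). Plates of a genotype differed by a chi-square per degree of freedom of at least 8.83, so none was a duplicate. All plates use the same 384 well names, the layout of a plate, and no doublet caller was run after the single-cell sort.

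The text names Rev1, Pcna and Cdkn1a, the 12 genes of smallest p in each direction and up to 4 called members of each of 30 lists by p. A few genes of this rule are not reported here. Others are further called members, or were chosen after their values were seen (Hlf, Pold4, Alb, Afp, Cdh5). Members, lists and tests were chosen with earlier results of these data known. Positions are from GENCODE M21 and promoters from RefSeq (GRCm38.p6), matched by symbol or synonym for 9407 of the 11799 genes tested.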

Additional observations from a re-analysis of the deposited data

Results flagged for a closer look

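Among the 58 named genes and the 2 shares of wells, 5 values had 1 double mutant plate far from the other 3, by Dixon's ratio of the gap to the range at its 95% critical value. Chance gives about 1 in 20 such groups. On the shallow double mutant plate 3, Ccrn4l (37.7 CPM) and Ccng1 (104 CPM) lay below the other double mutant plates. On the same plate Cd4 (9.41 CPM, which is 1 UMI) lay above them. The plate labelled double mutant 4 was above the others for Crip2 (71.2 CPM) and Rrm2 (648 CPM).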

How the results depend on the processing

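The 206 genes of the double mutant against Rev1 knockout comparison became 58 with the 7 plates alone and sort session, 96 with them and no session term, 458 with 12 plates and no session term, 9 with flow cell in place of session, and 853 in session 3 alone. DESeq2 gave 817, limma-voom 920, no low-count filter 1072, wells thinned to 1000 UMIs 80, and wells without 3 or more erythroid-list UMIs 63. Read counts gave 0 in edgeR, with 2176 at an unadjusted p under 0.05. Leaving out 1 plate gave 2 to 616: 2 without the plate labelled double mutant 4, 7 without Rev1 knockout plate 2, 30 without double mutant plate 2, 61 without Rev1 knockout plate 3, 606 without Rev1 knockout plate 1 and 616 without double mutant plate 3. The last 2 are the whole of session 2, so their fits are nearly the same. WT and Pcna K164R plates moved it too, to 363 without WT plate 1, 99 and 127 without WT plates 2 and 3, and 120 and 122 without the Pcna K164R plates. Chosen after seeing the data, leaving out session 2 gave 595, and no session term without double mutant plates 3 and 4 gave 1243. Scaling by total UMIs alone shifted the median of all genes to -0.27 and split 228 calls into 44 higher and 184 lower, against 77 and 129. Thinned wells split into 47 higher and 33 lower.

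The interaction, 0 genes, became 229 with no low-count filter, 1 with thinned wells, and 0 to 6 with 1 plate left out. The Cdkn1a share difference of 5.17 percentage points was 9.04 at 2000 UMIs and 24.1 with no thinning, and ranged from 4.46 to 5.98 with 1 plate left out, where 3 against 3 or 4 against 2 plates cannot give p under 0.05. The erythroid-list share difference of 20.3 was 8.82 at 2000 UMIs and turned to -12.7 with no thinning. Among named genes, Rev1 turned to -1.25 with flow cell in place of session, and to -0.80 and -0.93 with no session term and double mutant plate 4, or 3 and 4, left out. Pcna turned to -0.20 with total UMIs, -0.0924 without erythroid-list wells and, with 1 plate left out, ranged from -0.26 (without the plate labelled double mutant 4; -0.0905 without Rev1 knockout plate 2) to 0.796 (without Rev1 knockout plate 1). Ell2 turned to -0.0311 without erythroid-list wells. The alternatives were run for the 61 genes of the naming rule and not for other genes in the text. Of their 1991 gene and setting pairs 8 changed direction, those above, and 555 lost the call. The cause of these changes was not tested.

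No paired analysis was possible because the labels carry no replicate numbers shared between genotypes. Depth limits double mutant plate 3, where 1 UMI is 9.41 CPM.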
